A study of Oryza sativa with 18 samples.

Results

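Windows of the rice genome that were crowded with R-loop peaks were examined. Each chromosome was cut into tiles of 20 kb, and a tile was called crowded if it held at least 7 peak midpoints in each of the 2 libraries made from 8 µg of DNA. This rule kept 638 of 18655 tiles, which is 3.42% of the tiles and 12.76 Mb. The tiles were thus selected on the 8 µg numbers, and every value from the 8 µg lists is given below as a description of what was selected.

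An R-loop is a stretch of RNA paired with one DNA strand while the other DNA strand is displaced. R-loops form mainly during transcription, RNase H degrades their RNA strand, and in plants they are known to gather around gene starts, gene ends and antisense transcripts. No gene annotation of the build of these coordinates was used here, so genes, exons and repeats in the tiles are not given.

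The data were 18 lists of peaks from ISRH-seq, an assay that lets RNase H and DNA polymerase I act on sheared genomic DNA, so that the RNA of a hybrid gives way to new DNA carrying biotin, which is then pulled out and sequenced. All libraries came from wild-type rice seedlings. By title, input DNA was 8, 5, 3 or 1 µg or 500 or 250 ng, with 2 libraries at each amount, or 100 ng, with 1 library. A single library is titled RNaseH, and the salt and CK(salt) titles have 2 libraries each. The salt plants received 150 mM NaCl per the labels, and the treatment label reads 3 days for salt and also for CK(salt), a conflict that the sources used here do not settle. No source used here gives the seedlings' age or cultivar, or how much DNA entered the RNaseH, salt and CK(salt) libraries. Nothing says that libraries of one group came from separate plants, so the spread between them may be technical.

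The lists held from 14845 peaks at 100 ng to 70518 peaks in 8 µg replicate 1, and 123 peaks in the RNaseH library. Depth, read as the background coverage behind most peaks of a list, was 11.44 and 12.74 at 8 µg, between 4.82 and 7.84 from 5 µg to 250 ng, and 0.88 at 100 ng. For salt it came to 6.74 and 3.88, and for CK(salt) to 8.6 and 4.3. Depth therefore moved with the 8 µg and 100 ng amounts, and its part in the results was not tested.

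Most crowded tiles sat at the threshold. The lower of their 2 8 µg numbers was 7 in 493 tiles (77.3%), 8 in 119 tiles and 9 or more in 26 tiles, with 12 as the highest. Just outside the threshold, 1335 tiles had a lower number of 6. At the 8 µg amount itself, 1571 tiles reached 7 in replicate 1 and 1054 reached it in replicate 2. The crowded tiles were 40.6% of the former and 60.5% of the latter.

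**Figure D1:**
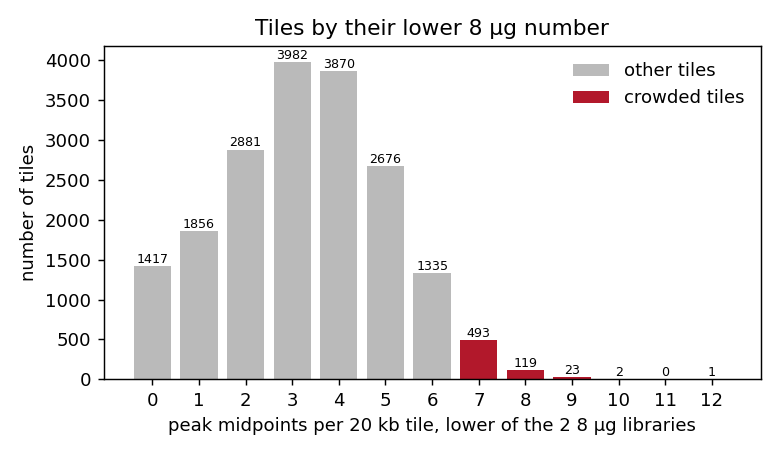
Number of 20 kb tiles (vertical axis) by the number of peak midpoints in whichever of the 2 8 µg libraries held fewer (horizontal axis). Red bars are the 638 crowded tiles, of which 493 stand at 7, next to the 1335 tiles at 6.

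The tile that led the list lies on chromosome 12 from 20520001 to 20540000. It held 12 midpoints in each 8 µg library, from 8 to 12 in the 10 libraries between 5 µg and 250 ng, and 6 at 100 ng. The salt libraries held 10 and 11, and the CK(salt) libraries 11 and 11. The tile also held 5 of the 123 peaks of the RNaseH library. It was the highest of the crowded tiles also by its lowest number over the 10 libraries, which was 8. In the 8 µg lists that chose it, the median fold of its peaks, which is summit coverage over local background as the authors' caller gave it, was 2.90 and 2.77, and that over all crowded tiles was 4.0 and 4.3. The local background there was 9.74 and 9.66 times the genome-wide background of those 2 libraries.

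The next tiles by 8 µg number behaved differently from one another at lower input. On chromosome 5, from 140001 to 160000, both 8 µg libraries held 10 midpoints. The 5 µg libraries held 7 and 8 there, the 3 µg libraries 8 and 11, the 1 µg libraries 10 and 5, the 500 ng libraries 5 and 1, and the 250 ng libraries 3 and 3. The numbers at 500 and 250 ng did not overlap those at 5 and 3 µg. On chromosome 7, from 8340001 to 8360000, where the 8 µg libraries also held 10 each, the numbers were 7 and 9 at 5 µg, 7 and 6 at 500 ng, and 5 and 8 at 250 ng, and these overlapped. The salt libraries held 6 and 7 midpoints in that tile and the CK(salt) libraries 6 and 7.

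A lower 8 µg number of 9 was held by 23 tiles, and over these the 250 ng libraries held from 1 to 7 midpoints. The 7 described here had the highest sums of both 8 µg numbers, with chromosome order deciding among 9 tiles of equal sum, which left 3 of those out. They were on chromosome 9 from 4720001, on chromosome 1 from 38940001 and from 42400001, on chromosome 3 from 23780001, on chromosome 4 from 3520001, on chromosome 5 from 29480001 and on chromosome 6 from 1520001. Over these 7 tiles the 250 ng libraries held from 3 to 7 midpoints. The tile on chromosome 1 from 42400001 stood out in having 7 and 7 midpoints at 250 ng, 8 and 8 at 500 ng and 7 and 7 at 5 µg. The tile on chromosome 3 from 23780001 fell to 4 and 3 at 250 ng from 7 and 6 at 5 µg.

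Crowded tiles were spread over all 12 chromosomes. Their share of the tiles was highest on chromosome 1, with 89 of 2163 tiles (4.11%), and on chromosome 3, with 73 of 1821 (4.01%). It was lowest on chromosome 12, with 35 of 1377 (2.54%), and on chromosome 6, with 43 of 1563 (2.75%). In the CK(salt) libraries, which the rule did not use, the mean number of midpoints per tile was 2.67 on chromosome 1 and 2.78 on chromosome 3, against 2.18 on chromosome 12. Chromosome 6, at 2.53, had fewer crowded tiles than chromosome 5 (3.75% of tiles) although its mean lay close to the 2.50 of chromosome 5.

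Within chromosomes, the share of crowded tiles was 4.50% within 1 Mb of either end of the peaks' reach, 3.00% from 1 to 2 Mb, 3.47% from 2 to 5 Mb, 3.87% from 5 to 10 Mb and 2.87% beyond 10 Mb. Every chromosome held a stretch without any crowded tile, and the longest were 3.98 Mb on chromosome 3 (17600001 to 21580000), 3.8 Mb on chromosome 11 (9860001 to 13660000) and 3.76 Mb on chromosome 5 (10900001 to 14660000). Of 367 windows of 1 Mb, 80 held no crowded tile and 15 held at least 5. The highest number in a window was 8, on chromosome 8 (24000001 to 25000000), chromosome 10 (17000001 to 18000000) and chromosome 11 (19000001 to 20000000).

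Crowded tiles rarely touched each other. The 638 tiles formed 614 runs, of which 590 were single tiles and 24 were pairs, and no run was longer. The pairs held 48 tiles (7.52%) and lay on 8 chromosomes. Of the 1274 tiles next to a crowded tile, 48 were crowded (3.77%), a share close to the 3.42% of all tiles. With a threshold of 6 midpoints, 449 of 1973 tiles stood in runs, and with a threshold of 8 midpoints 0 of 145 did.

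The runs with the most 8 µg midpoints were examined in the other libraries. The fifth place was shared by 7 runs with a sum of 32 midpoints over both 8 µg libraries, so 9 runs are described. The first, on chromosome 8 from 19180001 to 19220000, held 18 and 16 midpoints at 8 µg, 16 and 16 at 5 µg, 10 and 9 at 250 ng, 7 and 11 in salt and 11 and 11 in CK(salt). The second, on chromosome 9 from 14580001 to 14620000, held 19 and 14 at 8 µg, 12 and 14 at 5 µg and 11 and 13 at 250 ng, so the numbers at 5 µg and 250 ng overlapped. In salt it held 7 and 8, below the 12 and 10 of CK(salt). The 7 tied runs lay on chromosome 3 from 11140001 and from 21580001, on chromosome 5 from 27660001, on chromosome 7 from 19320001 and from 25620001, and on chromosome 10 from 17000001 and from 17240001. In 6 of these 7 both 250 ng libraries held fewer midpoints than both 5 µg libraries, with 5 to 10 midpoints per run against 10 to 15. The exception, on chromosome 10 from 17240001 to 17280000, held 10 and 12 at 250 ng and 10 and 11 at 5 µg. In each of the 7 tied runs both salt libraries held no more midpoints than the lower CK(salt) library, ties included. The 250 ng and salt lists were shorter as a whole than the 5 µg and CK(salt) lists. Among 11116 single tiles tested, both salt libraries lay below both CK(salt) libraries in 23.6 percent. No such share is given for 250 ng against 5 µg, and none for either comparison over other pairs of adjacent tiles. The counts of tied runs therefore only describe the named runs and cannot be set against a background.

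The excess of peaks fell off within 1 tile in every library. Over the 15 libraries outside the rule and other than RNaseH, crowded tiles held 178.5% ± 14.8 (SD, n = 15) of the mean of all tiles. Tiles 20 kb away held 108.7% ± 1.98, and tiles 200 kb away 104.8% ± 0.920. The rule was applied to a fixed grid, and its edges matter. When the tiles began at position 10000 instead, 576 tiles were crowded, and 262 of the 638 tiles (41.1%) overlapped one of them.

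**Figure D2:**
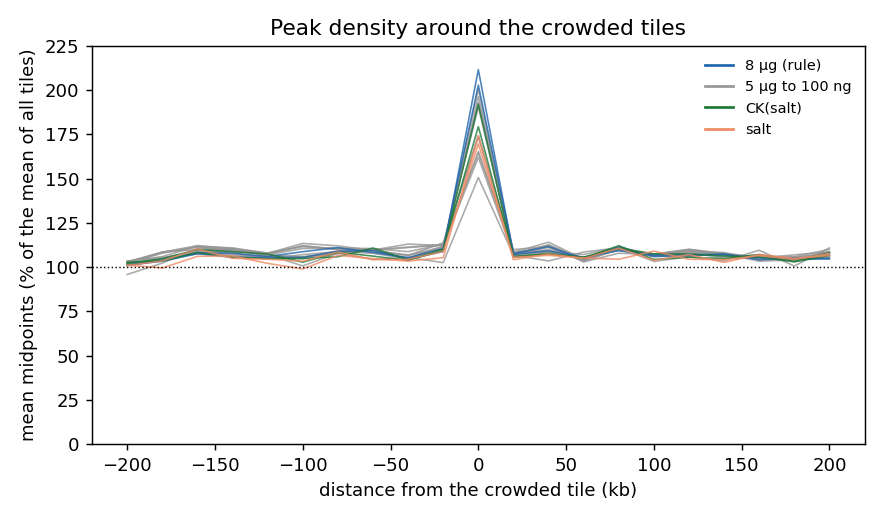
Mean number of peak midpoints per tile, as a percentage of that library's mean over all tiles (vertical axis), against the distance from a crowded tile in kb (horizontal axis), with 1 line per library. All libraries peak at distance 0, from 151% at 100 ng to 212% in 8 µg replicate 2, and lie close to 100% from 20 kb outward.

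The number of peaks left in the crowded tiles differed between input amounts. The mean number of midpoints per crowded tile was 5.01 and 6.25 at 5 µg, 4.94 and 6.18 at 3 µg, 5.72 and 4.66 at 1 µg, 4.29 and 4.08 at 500 ng, 3.80 and 4.01 at 250 ng, and 1.20 at 100 ng. Every library at 500 and 250 ng therefore lay below every library at 1 µg and above. The libraries at 5, 3 and 1 µg overlapped. In tiles outside the rule the means were 2.52 and 3.01 at 5 µg and 2.29 and 2.37 at 250 ng. Relative to 5 µg, the 250 ng libraries held 69.4% ± 11.2 (SD from 2 libraries a group) of the midpoints in crowded tiles, and 84.3% in the other tiles. After the 10 lists had been cut to one length, the value in crowded tiles was 84.5%. Over all tiles it is then 100% by construction.

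Tiles with 6 as their lower 8 µg number lay close to those at 7 in the libraries that the rule did not use. Their means were 4.43 and 5.33 at 5 µg against 4.82 and 6.04 for tiles at 7, and 3.48 and 3.64 at 250 ng against 3.71 and 3.93. The 26 tiles with 9 or more held 6.35 and 7.88 at 5 µg and 4.62 and 4.62 at 250 ng.

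**Figure D3:**
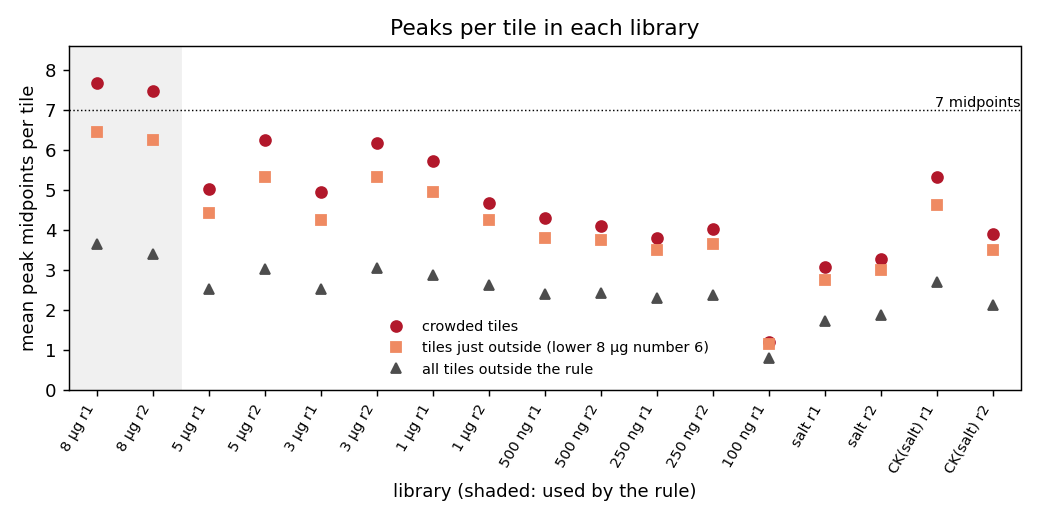
Mean number of peak midpoints per 20 kb tile in each library (vertical axis), for crowded tiles, tiles just outside the threshold and all tiles outside the rule. The shaded 8 µg libraries chose the tiles, and the crowded mean falls from 6.25 in 5 µg replicate 2 to 3.80 in 250 ng replicate 1 and 1.20 at 100 ng.

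The share of a list's peaks that fell in crowded tiles followed the same order. It was 6.56% and 6.86% at 5 µg, 6.52% and 6.72% at 3 µg, 6.59% and 5.93% at 1 µg, 5.97% and 5.63% at 500 ng, 5.54% and 5.66% at 250 ng, and 5.15% at 100 ng. Both 5 µg and both 3 µg libraries lay above all 4 libraries at 500 and 250 ng. The lowest 1 µg library lay between the 500 ng libraries.

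The number of tiles that met the criterion of 7 midpoints again differed between libraries of one amount. Of the 638 crowded tiles, 86 and 274 held at least 7 in the 5 µg libraries, 61 and 265 at 3 µg, 171 and 77 at 1 µg, 46 and 31 at 500 ng, 21 and 26 at 250 ng, and 0 at 100 ng. The 274 tiles in 5 µg replicate 2 were 42.9% of the crowded tiles, where 2.79% of all tiles met the criterion, and the 265 in 3 µg replicate 2 were 41.5%, against 3.01% of all tiles. In 250 ng replicate 1 the shares were 3.29% and 0.461%. A set of 207 tiles (32.4%) reached 7 in none of the 10 libraries from 5 µg to 250 ng, and 2 reached it in all of them. Those 2 were the chromosome 12 tile described above and a tile on chromosome 1 from 24940001 to 24960000, which held 7 or 8 midpoints in each of the 10 libraries. At least 5 midpoints in every one of the 10 libraries were present in 60 crowded tiles (9.40%), against 0.511% of the other tiles.

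The 10 tiles with the highest lowest number over the 10 input libraries had at least 6 midpoints in each of them, as did 12 crowded tiles in all, and the median over the 10 libraries chose among those at 6. Besides the chromosome 12 and chromosome 1 tiles just named, they included the tile on chromosome 9 from 14580001, with 6 to 10 midpoints, and the tile on chromosome 2 from 6140001, with 6 to 8. The remaining ones lay on chromosome 1 from 42400001, chromosome 4 from 19360001 and from 24760001, chromosome 6 from 20700001, chromosome 9 from 18940001 and chromosome 12 from 19900001. At 100 ng these last 6 tiles held 0 or 1 midpoint each. In the chromosome 4 tile from 24760001, salt held 3 and 2 midpoints and CK(salt) 7 and 6, whereas in the chromosome 2 tile salt held 5 and 6 and CK(salt) 6 and 7.

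Applied to other pairs of libraries, the same rule found fewer tiles. It kept 80 tiles at 5 µg, of which 60 were crowded at 8 µg, 61 at 3 µg (46 crowded), 64 at 1 µg (50 crowded), 32 at 500 ng (16 crowded) and 30 at 250 ng (7 crowded). The CK(salt) pair kept 20 tiles, of which 14 were crowded, and the salt pair 8, of which 5 were crowded. The crowded ones were thus 75% of the tiles kept at 5 µg and 23.3% of those kept at 250 ng.

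The slope of log2(midpoints + 1) on log2 input amount was fitted with limma in all 13125 tiles with a mean of at least 2 midpoints over the 10 libraries from 5 µg to 250 ng. A positive slope means more midpoints at higher input. Among 637 crowded tiles tested, the slope was positive in 172 tiles (27.0%) and negative in 3 (0.471%) at a limma adjusted p under 0.05. Among all tiles tested, 12.4 percent were positive and 3.13 percent negative. The median slope was 0.11 per doubling of input in crowded tiles and 0.05 over all tiles. Crowded tiles hold more midpoints, which narrows the spread of log2 numbers, so the share of calls is not on an equal footing with that of all tiles.

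The calls depended on a few libraries and on the order in which libraries may have been made. Library codes in the peak names form 4 runs of consecutive numbers among the 10 libraries, which may be preparation or sequencing order. With these runs as a factor 0 tiles were called by limma, 0 of them crowded. At an unadjusted limma p under 0.05, 99 crowded tiles (15.5%) had a positive and 5 (0.785%) a negative slope. The shares of all tiles were 9.2 percent and 4.11 percent. The median slope in crowded tiles was then 0.06, against 0.02 over all tiles. Without 250 ng replicate 1, 3 crowded tiles (0.470%) had a positive call, below the 0.611 percent of all tiles. Without 250 ng replicate 2 there were 47 (7.37%, against 3.91 percent of all tiles). Without 500 ng replicate 2 there were 92 (14.4%, against 7.11 percent). Without 5 µg replicate 2 there were 18 (2.83%, against 1.94 percent), and without 3 µg replicate 2 there were 59 (9.26%, against 4.42 percent). With numbers scaled to equal list totals, 103 crowded tiles (16.2%) were positive and 9 (1.41%) negative, against 7.44 percent and 8.12 percent of all tiles. With the spread pooled over tiles of the same total number, 292 crowded tiles (45.8%) were positive and 4 (0.628%) negative. The shares of all tiles were 18.7 percent and 4.24 percent.

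The steepest positive slope was in the tile on chromosome 2 from 5680001 to 5700000, which held 4 and 7 midpoints at 5 µg, 5 and 5 at 3 µg, 3 and 1 at 1 µg, 1 and 0 at 500 ng, and 0 and 1 at 250 ng. The libraries at 500 and 250 ng lay below all those at 5 and 3 µg. Its slope was 0.58 ± 0.10 (SE, limma adjusted p = 0.0177). The tile on chromosome 3 from 36280001 to 36300000 came next, with 5 and 8 midpoints at 5 µg, 6 and 8 at 3 µg and 1 and 0 at 250 ng, and a slope of 0.55 ± 0.10 (SE, limma adjusted p = 0.0186). The steepest negative slope was in the first tile of chromosome 3, from 1 to 20000. That tile held 2 midpoints in each library at 5 and 3 µg, 3 and 6 at 1 µg, 4 and 5 at 500 ng and 5 and 5 at 250 ng. Its slope was -0.26 ± 0.05 (SE, limma adjusted p = 0.019), and its 8 µg libraries, which chose it, held 7 and 7. The other negative calls were on chromosome 8 from 24580001 and on chromosome 2 from 30340001. These tiles were chosen after their values were seen.

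Peaks in crowded tiles were narrower than elsewhere. At 5 µg the median width was 338 and 372 bp in crowded tiles and 382 and 417 bp in the other tiles. At 1 µg it was 376 and 449 bp against 426 and 481 bp. At 250 ng it was 491 and 494.5 bp against 491 and 516 bp. Of the 15 libraries, 14 had the narrower median in crowded tiles, and in 250 ng replicate 1 the medians were equal. The difference ran from -50 to 0 bp, with a mean of -33.1 ± 15.4 bp (SD, n = 15).

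Wide peaks were also rarer in crowded tiles at high input. Peaks over 1000 bp made up 0.814% and 1.93% of the crowded peaks at 5 µg, against 3.15% and 5.82% of the others. At 250 ng the shares were 9.20% and 9.34% against 9.37% and 10.7%, so there the classes were close. In the CK(salt) libraries they were 2.30% and 1.49% against 5.57% and 3.58%.

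The peaks stood closer together. The median distance between neighbouring midpoints in a tile was 2900 and 2364 bp at 5 µg, against 3914 and 3414 bp in other tiles. At 250 ng it was 3787 and 3665 bp against 4228 and 4245 bp. It was shorter in crowded tiles in 14 of 15 libraries. The exception was the 100 ng library, with 6540.5 bp against 6462 bp. Peaks covered 9.81% and 13.5% of the crowded tiles at 5 µg and 5.69% and 7.51% of the others, and 10.7% and 11.6% against 6.59% and 7.10% at 250 ng.

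**Figure D4:**
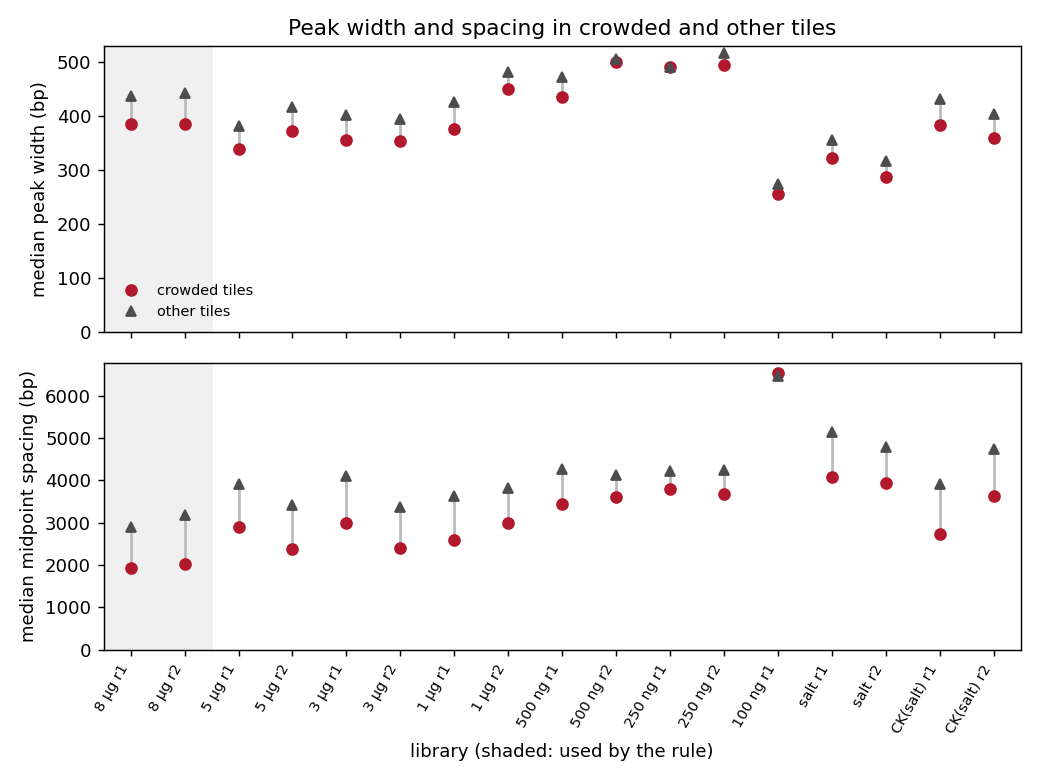
Median peak width (upper panel, bp) and median distance between neighbouring midpoints of a tile (lower panel, bp) in each library, for crowded tiles and other tiles. Crowded tiles lie lower in 14 of 15 unshaded libraries in each panel, with equal widths in 250 ng replicate 1 and a slightly longer spacing at 100 ng.

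Part of these differences went with the number of peaks in a tile. Crowded and other tiles that held the same number of midpoints in a library were therefore set beside each other, where both classes held at least 100 such peaks. With 4 midpoints, crowded tiles had the narrower median peak in 10 of 14 libraries and the wider in 4, with differences from -46 to 21.5 bp. With 5 midpoints they were narrower in 8 of 14 and wider in 5, and with 6 midpoints they were narrower in 4 of 14 and wider in 10, with differences from -9.5 to 25 bp. The narrower peaks of crowded tiles were thus not seen at every number. Spacing went the other way from the unmatched values. With 4 midpoints the median spacing was longer in crowded tiles in 14 of 14 libraries, by 22 to 477 bp, with 5 midpoints in 13 of 14 and with 6 midpoints in 11 of 14.

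Taken over all their tiles, peaks in crowded tiles ranked lower in strength within their own list. The median percentile of the authors' score, which is the -log10 q-value times 10, lay between 45.1 and 48.8 in crowded tiles and between 49.9 and 50.6 in the other tiles over the 15 libraries. Among tiles of the same number the direction turned as that number rose. With 4 midpoints the percentile was lower in crowded tiles in 10 of 14 libraries, with 5 midpoints in 6 of 14 and with 6 midpoints in 1 of 14. With 6 midpoints it was 45.7 against 40.8 in 5 µg replicate 1, and the difference ran from -0.304 to 6.02 over the 14 libraries. The median fold was 4.89 and 4.52 at 5 µg against 5.60 and 5.20 in other tiles, and 3.54 and 3.73 at 250 ng against 3.80 and 4.07. It was lower in crowded tiles in 15 of 15 libraries. The local background that enters the fold was higher in crowded tiles. At 5 µg its median was 1.55 and 1.58 times the genome-wide background, against 1.28 and 1.25 in other tiles.

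Single regions were then followed from 8 µg to the other libraries. The 8 µg lists shared 57109 regions, of which 4292 (7.52%) lay in crowded tiles. When all shared regions were ranked by 8 µg strength and cut into 10 equal deciles, the weakest decile held 12.0% of the crowded ones and the strongest 4.89%. This strength comes from the lists that chose the tiles, so these shares describe the selection. A peak was found again over 69.1% and 85.3% of the crowded regions in the 5 µg libraries, 60.3% and 78.7% at 1 µg, 46.8% and 50.9% at 250 ng, and 17.6% at 100 ng. In other tiles the shares were 75.6% and 88.3% at 5 µg, 54.3% and 59.0% at 250 ng, and 25.6% at 100 ng. The share was lower in crowded tiles in 15 of 15 libraries. All 10 libraries from 5 µg to 250 ng held a peak over 28.8% of the crowded regions and 39.2% of the others, and none of the 10 did over 3.56% and 2.98%.

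Over all strengths the share found again differed between crowded and other tiles by a median of -7.73 percentage points over the 15 libraries. Within single deciles of 8 µg strength the median difference lay between -3.34 and 0.334 points. In the weakest decile the share was lower in crowded tiles in 8 of 15 libraries, in decile 6 in 15 of 15, in decile 7 in 13 of 15 and in the strongest decile in 7 of 15. The differences were not smaller in every decile at 250 ng. In decile 7 there, 56.3% ± 4.73 of the crowded regions and 64.3% ± 5.01 of the others were found again (SD, n = 2), and the libraries did not overlap. In decile 3 they did not overlap either, with 34.5% ± 1.22 and 37.6% ± 1.31. Decile 2 went the other way without overlap, with 35.7% ± 1.30 of the crowded regions and 33.3% ± 1.30 of the others. In the strongest decile the shares were 91.7% ± 5.05 and 94.2% ± 3.55, and these overlapped. The lists of one library gave both shares, so overlap between the ranges does not compare the classes within a library. These differences are descriptive.

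At 500 and 250 ng, single peaks more often lay over several shared 8 µg regions than at 5 µg, while at 100 ng none did. At 5 µg, 0.307% ± 0.169 (SD, n = 2) of the crowded peaks overlapped 2 or more of them, and 0.137% ± 0.0782 of the other peaks did. The 1 µg libraries differed, with 0.713% of the crowded peaks in replicate 1 and 3.16% in replicate 2, against 0.313% and 1.29% of the others. Replicate 2 at 1 µg thus lay above 500 ng replicate 1, where 2.96% of the crowded peaks did so. At 500 ng the shares in crowded and other tiles were 3.75% ± 1.11 and 1.43% ± 0.475, and at 250 ng 4.56% ± 0.0352 and 1.70% ± 0.0603. At 100 ng, 0 of 765 crowded peaks did so, which allows a share of up to 0.392%, and 0% of the others. A crowded peak that overlapped no shared 8 µg region made up 5.96% ± 1.04 of the crowded peaks at 5 µg and 20.3% ± 1.76 at 250 ng. In other tiles these shares were 9.09% ± 2.02 and 28.9% ± 2.41. At 100 ng they were 0.392% in crowded and 1.23% in other tiles.

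The salt comparison addressed whether the R-loop profile differed after salt treatment. In crowded tiles the salt libraries held 3.07 and 3.27 midpoints per tile and the CK(salt) libraries 5.33 and 3.90. Both salt libraries lay below both CK(salt) libraries. An exact permutation test of 2 libraries against 2 cannot give a two-sided p below 0.33. The difference of mean log2 values was -0.53 in crowded tiles and -0.42 over all tiles, and the salt lists were shorter as a whole. Between single libraries, the salt number was 57.6% to 83.7% of the CK(salt) number in crowded tiles and 63.5% to 88.5% over all tiles. With the 4 lists cut to one length, the log2 difference in crowded tiles was -0.07. The CK(salt) lists held 51710 and 40592 peaks and the salt lists 32861 and 35907, and the part of list length and depth in the difference was not tested further.

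In 235 of the 621 crowded tiles with a mean of at least 2 midpoints (37.8%), both salt libraries lay below both CK(salt) libraries, and in 1 tile both lay above. That tile, on chromosome 10 from 4440001 to 4460000, held 7 and 7 in salt and 6 and 6 in CK(salt). Over all 11116 tiles tested, 23.6 percent were lower in this way and 0.918 percent higher. The salt-minus-CK(salt) difference of log2(midpoints + 1) was negative in 552 crowded tiles (88.9%) and in 74.9% of all tiles. Its median was -0.42 and -0.21, respectively. Crowded tiles hold more midpoints, ties are commoner at low numbers, and the added 1 shrinks differences more there. These shares and medians are therefore not on an equal footing with those of all tiles.

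The planned limma fit called 26 of 621 crowded tiles (4.19%) lower and 1 (0.161%) higher in salt at an adjusted p under 0.05. Of all tiles, 6.15 percent were called lower and 0.612 percent higher, so both shares were smaller in crowded tiles. All 27 crowded calls, and 741 of the 752 calls in all, were tiles in which the 2 libraries of each group held equal numbers, so that the fitted spread was nearly 0. With such tiles left out, limma called 1 tile in all and 0 crowded tiles, of which 160 (27.4%) were lower and 0 higher at an unadjusted p under 0.05, against 9.22 percent and 0.0324 percent of all tiles. These salt calls are therefore not used to name tiles. With the spread pooled over tiles of the same total number, an alternative added after the data were seen, 52 of 621 crowded tiles (8.37%) were lower and 0 higher, against 2.18 percent lower and 0.009 percent higher of all tiles. With numbers scaled to equal list totals limma called 0 tiles, and 77 crowded tiles (12.4%) were lower and 16 (2.58%) higher at an unadjusted p under 0.05, against 3.89 percent and 2.81 percent of all tiles. The larger numbers in crowded tiles keep all these shares from an equal footing with those of all tiles.

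The 5 crowded tiles with the lowest salt-minus-CK(salt) difference held 0 to 2 midpoints in salt. On chromosome 9, from 15380001 to 15400000, salt held 1 and 0 midpoints and CK(salt) 5 and 4, a difference of -1.95 ± 0.38 on the log2(midpoints + 1) scale (pooled SE, adjusted p = 3.57e-04 by the pooled-spread test, limma adjusted p = 0.35). The 5 µg libraries held 4 and 7 in that tile and the 250 ng libraries 3 and 3. On chromosome 1, from 7160001 to 7180000, salt held 0 and 1 and CK(salt) 6 and 2. The other tiles lay on chromosome 3 from 4080001 (0 and 1 in salt, 5 and 2 in CK(salt)), chromosome 7 from 3980001 (0 and 2 against 4 and 4) and chromosome 2 from 29420001 (0 and 2 against 5 and 3). Their differences were between -1.7 and -1.5. In all 5 tiles both salt libraries lay below both CK(salt) libraries. The tiles were chosen on these same values, so this separation and the p-values above describe the choice and are no test of it.

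At the other end, the 5 highest tiles held about as many midpoints in salt as in CK(salt). On chromosome 3, from 34160001 to 34180000, salt held 7 and 8 and CK(salt) 7 and 5, a difference of 0.29 ± 0.25 (pooled SE, adjusted p = 0.653 by the pooled-spread test). On chromosome 4, from 24960001 to 24980000, salt held 4 and 6 and CK(salt) 4 and 4. The others were on chromosome 2 from 7380001 (3 and 6 in salt, 4 and 3 in CK(salt)), chromosome 3 from 24740001 (5 and 7 against 6 and 4) and chromosome 11 from 4900001 (7 and 7 against 7 and 5). The groups overlapped or tied in each of these 5 tiles, which were also chosen on these values.

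Regions with a peak in both CK(salt) libraries were followed into salt. Crowded tiles held 2271 such regions, of which 386 had no peak in either salt library. This is 17.0% (exact 95% binomial interval 15.5 to 18.6%, which covers counting error only), against 12.8% (12.5 to 13.2%) of all such regions. Both salt libraries held a peak over 55.5% of the crowded regions and 62.6% of all regions. At least 1 region was lost in 300 crowded tiles (47.0%) and in 22.1% of all tiles. Crowded tiles held more CK(salt) midpoints each, with means of 5.33 and 3.90 against 2.77 and 2.18 over all tiles. More regions in a tile could be lost, so these 2 shares of tiles are not on an equal footing. With the 4 lists cut to one length, 9.02% of the crowded regions and 6.04% of all regions were lost. The share rose when any 1 library was left out, since fewer libraries then have to agree. It was 30.3% without salt replicate 1 and 31.3% without salt replicate 2, against 23.7% and 26.6% of all regions. It was 21.4% without CK(salt) replicate 1 and 32.0% without CK(salt) replicate 2, against 17.6% and 27.8% of all regions.

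Loss ran with strength. Among the weakest decile of the CK(salt) regions 51.1% of those in crowded tiles were lost (45.0 to 57.2%), against 42.8% (41.1 to 44.5%) in other tiles. In decile 5 the shares were 13.8% (9.79 to 18.6%) and 10.9% (9.92 to 12.0%), whose intervals overlapped. The crowded share was the higher in every decile below the strongest, with 22.1% against 21.2% in decile 3 and 7.96% against 5.31% in decile 6. All these regions come from the same libraries, and the intervals cover counting error only. In the strongest decile 0 of 143 crowded regions and 0 of 3528 others were lost. For the crowded ones the exact interval reaches to 2.55%.

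**Figure D5:**
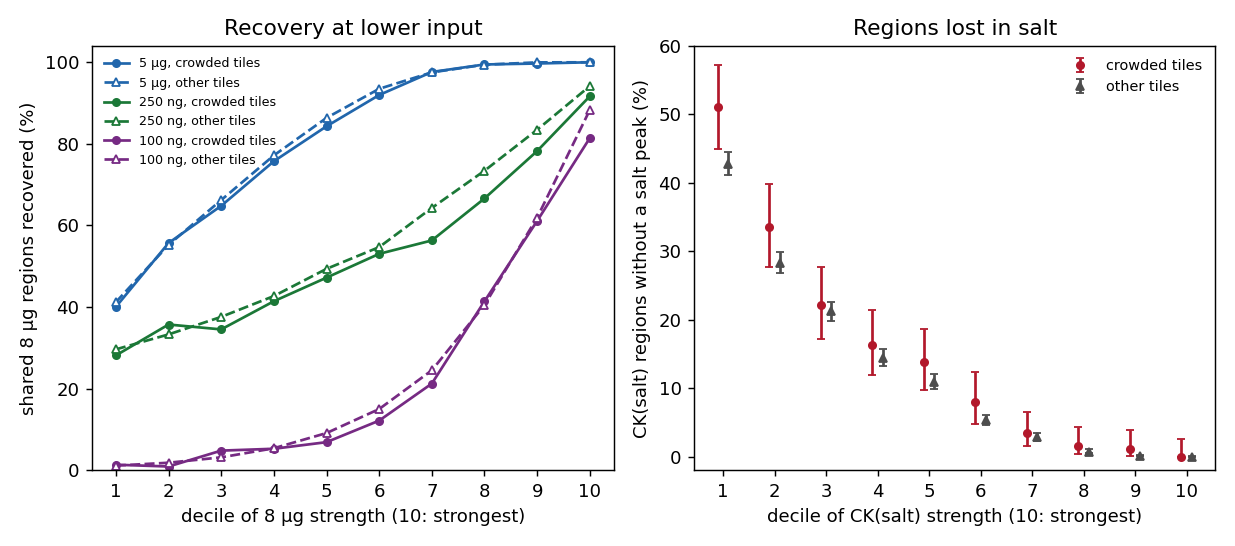
Left, share of the shared 8 µg regions that had a peak at 5 µg, 250 ng and 100 ng (vertical axis, mean of the libraries) by decile of 8 µg strength, for crowded tiles (filled) and other tiles (open). Right, share of CK(salt) regions without a peak in either salt library by decile of CK(salt) strength, with exact 95% binomial intervals, which falls from 51.1% in crowded tiles and 42.8% in others to 0.

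Gained regions, with a peak in both salt libraries and in neither CK(salt) library, numbered 161 in all, and 16 of them (9.94%) lay in crowded tiles. They were 1.17% of the 1371 regions with a peak in both salt libraries in crowded tiles, and 0.661% of all such regions. The 2 that ranked highest in the salt lists lay on chromosome 4 from 24962083 to 24962304 and on chromosome 8 from 19196693 to 19196969. Their scores stood at the 98.0 and 96.2 percentiles and at the 98.5 and 89.4 percentiles of salt replicates 1 and 2. The first lies in the chromosome 4 tile that was among the 5 highest in salt, and the second in the chromosome 8 run described above. These 2 were chosen after their values were seen.

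Peaks were also narrower in salt than in CK(salt). The median width in crowded tiles was 322 and 287 bp in salt and 383 and 359 bp in CK(salt), a difference of -66.5 bp between the group means. Over all tiles the difference was -80.5 bp. Both salt libraries lay below both CK(salt) libraries. The median spacing in crowded tiles was 4075 and 3945 bp in salt and 2734 and 3639 bp in CK(salt), so the salt libraries had the longer spacing. In other tiles it was also longer in salt, at 5143 and 4776 bp against 3913 and 4750 bp. Peaks covered 5.76% and 5.53% of the crowded tiles in salt and 11.7% and 8.08% in CK(salt).

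The RNaseH library held 14 of its 123 peaks (11.4%) in crowded tiles. They fell in 4 tiles, which is 0.627% of the crowded tiles (exact 95% binomial interval 0.171 to 1.60%), against 0.370% of all tiles (69 tiles). The tile on chromosome 9 from 4720001 to 4740000 held 6 of them, the chromosome 12 tile from 20520001 held 5, the tile on chromosome 10 from 2740001 to 2760000 held 2 and the tile on chromosome 1 from 7900001 to 7920000 held 1. The first 2 are also among the 10 tiles with the highest 8 µg numbers. In 8 µg replicate 1, one of the lists that chose the tiles, the local background under their peaks was 6.38 and 9.74 times the genome-wide background, beside a median of 1.55 over all crowded peaks of that library, and 1.5 and 1.9 times in the other two tiles. In the RNaseH library itself it was 19.5 times in the chromosome 9 tile and 21.5 times in the chromosome 12 tile. The other 634 crowded tiles held no RNaseH peak.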

How the data were processed

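The submitters' processing notes name Bowtie2 and MACS2 2.1.4. No source used here gives the genome build. The authors deposited 1 narrowPeak list per library with a score, a fold (a ratio of summit pileup to local background) and, for each summit, a -log10 p-value and a -log10 q-value. The score in the deposited lists equals the latter times 10, without decimals. The lists hold no read counts. Fold and p-value were solved for pileup and local background, which worked for 89.99% of the peaks at 100 ng and at least 99.2% elsewhere. A peak was placed by its midpoint, and coordinates are 1-based. The tiles, lists and named tiles were chosen with earlier results of these data known.

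The named tiles are the 10 with the highest lower 8 µg number (ties by the sum, then by chromosome and start), the 5 longest runs (ties by 8 µg midpoints, with all runs tied for the fifth place), the 5 highest and 5 lowest salt-minus-CK(salt) differences, the 10 with the highest lowest number over the 10 libraries from 5 µg to 250 ng, and those holding an RNaseH peak. Fits used limma 3.58.1 in R 4.3.3 (trend) on log2(midpoints + 1) in tiles with a mean of at least 2 midpoints, with Benjamini-Hochberg adjustment over all tiles tested and 0.05 as the threshold. The added pooled-spread fit averages the residual variance over tiles of the same total number and uses a normal reference. Regions overlapped if they shared at least 1 bp. A region's strength is the lower of its 2 libraries' ranks, cut into 10 equal classes. Percentiles rank a peak within its own list. Scripts were tested on simulated data, where the planned limma fit of salt against CK(salt) made many false calls. Alternatives covered the threshold, tile offset, summits, a -log10 q of at least 5, equal list lengths, pseudocount, filter, scaling, overlap and leaving out each library. Correlations of same-numbered libraries' deviations over tiles were 0.02 for salt with CK(salt) and -0.10 to 0.29 between input amounts, with values over 0.1 for 5 with 3 µg (0.29) and 1 µg with 500 ng (0.14) alone, so replicate numbers were not used as pairs.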

Additional observations from a re-analysis of the deposited data

How the results depend on the processing

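With 6 midpoints as the threshold 1973 tiles were crowded (449 in runs), and with 8 midpoints 145 (0 in runs). The share of a list's peaks in these tiles was then 17.7% and 1.55%, in place of 6.20%, and 5.64% with tiles from position 10000. Of the 638 tiles, 544 were found again with a -log10 q of at least 5 and 529 with 8 µg lists of equal length. In lists of equal length the 250 ng number was 84.5% of that at 5 µg, the salt-minus-CK(salt) log2 difference was -0.074, the width difference was -99 bp and 9.02% of the CK(salt) regions were lost. The loss was 19.0% with a -log10 q of at least 5, 15.1% and 18.8% with thresholds of 6 and 8, and 23.3% with an overlap of at least 50% of both intervals. Leaving out single libraries gave 21.4% to 32.0%, since fewer libraries then have to agree.

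Recovery at 250 ng, 48.8% in the main setting, was 43.5% with a -log10 q of at least 5 and 30.6% with an overlap of at least 50%. From the weakest to the strongest decile of 8 µg strength it was 28.1%, 35.7%, 34.5%, 41.4%, 47.2%, 53.0%, 56.3%, 66.6%, 78.2% and 91.7%.

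For salt, limma called 752 tiles in all, 1348 without the filter, 0 after scaling to equal list totals, 0 on covered bases, 0 with the replicate block, 1 with equal-number tiles left out and 243 with the spread pooled. At an unadjusted p under 0.05 the replicate block gave 1632 lower and 107 higher tiles, scaling 432 and 312, and covered bases 3737 and 2. Leaving out 1 library gave 1851 to 2835 calls, all in tiles of near-zero spread, with the lone library assumed to vary like the other group. For input, 2035 tiles were called, 3740 on covered bases, 4320 with the 100 ng library added, 0 with the code runs as a factor (540 lower and 1207 higher at an unadjusted p under 0.05) and 108 (without 250 ng replicate 1) to 2418 (without 1 µg replicate 1) with 1 library left out. The replicate block gave 1908 input calls and left the salt log2 difference at -0.53. The causes were not tested.

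The pooled-spread fit, the fit without equal-number tiles and the tiles without RNaseH peaks were chosen after seeing the data. Background coverage near 1 at 100 ng limits what that library can show.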
